A study of Homo sapiens with 3 samples.

Results

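The genes described here are the transcription factor NRF2 (gene NFE2L2), its inhibitor KEAP1, enzymes that NRF2 is known to induce, and further redox enzymes, among them the aldo-keto reductases, glutathione peroxidases and peroxiredoxins. They were chosen by name, and a gene counted as measured where the array held a probe set annotated to it and to no other gene. Of 39 genes listed, 34 were measured, by 89 of the 49395 probe sets on the array. AKR1A1, AKR1B1, PRDX5, FTH1 and SOD2 had no such probe set. All 34 passed the filter on low signal (a mean log2 signal of 5.85 over the arrays) with their brightest probe set, although GPX3, with an untreated mean of 5.83, passed only through its treated signal, and 83 of the 89 probe sets passed it.

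RNA was taken from FaDu, an established human cell line derived from a hypopharyngeal squamous carcinoma. NSC-631570, an extract of greater celandine (Chelidonium majus), was given at 10 µg/ml for 48 h and measured on 1 array, so the treated condition has no replicate. Control cells received distilled water instead and gave 2 arrays, untreated 1 and untreated 2. The comparison is of cells with and without the extract.

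NRF2 is held in the cytoplasm by KEAP1, which hands it over for degradation. When electrophiles or oxidants modify KEAP1, NRF2 enters the nucleus and binds, with small MAF proteins, to antioxidant response elements. Its targets make glutathione and thioredoxin available, supply NADPH, and reduce quinones and carbonyl compounds. Squamous carcinomas are known for frequent activation of this pathway.

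Of the 39 genes, 31 had a promoter window in the RefSeq table of build GRCh38.p14, in 44 windows that run from 250 bases before a transcription start to 50 bases after it, some genes having several starts. The element was searched on both strands as its core TGACNNNGC and as a longer form, the core followed by a further A. The core can also overlap the AP-1 element, as in the ME1 match TGACTCAGC. The longer form was found in 6 of the 44 windows (13.6%), against 3.18% of all 35116 windows in the table, and the core in 9 (20.5%) against 13.3%. Many of these genes were listed because they are known NRF2 targets, so this is a description and not independent evidence. ME1 and PGD held the core alone. The 6 longer matches are shown because treated signals of these NRF2-linked genes, given further on, lay on both sides of the untreated mean. Each is given in 40 bases on the strand of the gene, 5′ to 3′, with the match in capitals, and all but that of EPHX1 read as the reverse complement.
CBR1 chr21:36069849-36069888 (+ strand): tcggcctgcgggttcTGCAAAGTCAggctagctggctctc
EPHX1 chr1:225825261-225825300 (+ strand): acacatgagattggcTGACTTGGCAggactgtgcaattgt
GCLM chr1:93909441-93909480 (- strand): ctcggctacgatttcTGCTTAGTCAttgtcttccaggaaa
GPX2 chr14:64942844-64942883 (- strand): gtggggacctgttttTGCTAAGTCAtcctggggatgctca
KEAP1 chr19:10502779-10502818 (- strand): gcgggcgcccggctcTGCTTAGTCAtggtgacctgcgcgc
TXNRD1 chr12:104286914-104286953 (+ strand): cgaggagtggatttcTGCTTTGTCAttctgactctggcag

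Over the whole group, treated signals lay about where those of other genes lay. With each gene taken by its brightest probe set, none of the 34 genes passed limma's test over all 11932 tested genes at an adjusted p under 0.05, which 0.067% of tested genes passed. At an unadjusted p under 0.05, limma counted 5 of the 34 (14.7%), against 14.4% of tested genes. Of these, AKR1C1, AKR1C2, AKR1C3 and GPX3 were higher in the treated array (12.2% of tested genes) and EPHX1 was lower (2.25%). GPX3 entered only through its treated signal, and with the filter set on the untreated mean alone, chosen after seeing the data, the count was 4 of 33 (12.1%) against 14.2% of genes. The median log2 difference between the treated array and the untreated mean was 0.09, against 0.12 over all tested genes. The treated signal was above the untreated mean for 22 genes, against 66% of tested genes. It lay above both untreated arrays for 16 genes (51.7% of tested genes) and below both for 10 (22.5% of tested genes), and between them for 8. After centring the arrays on the tested genes, which lowers all differences alike, these counts were 10 above both (28.4% of tested genes) and 15 below both (46.4%), with 13 above the untreated mean. The median difference was then −0.10 over the 34 genes and −0.08 over all tested genes. A distance of at least 1.5-fold above both untreated arrays was reached by 2 genes, AKR1C2 and AKR1C3 (5.84% of tested genes), and 0 genes lay that far below both (1.23%). In 14 of the 34 genes the untreated arrays were further apart than the treated array was from their mean, as in 5381 of the 11932 tested genes. In bulk RNA, a transcript carried by fewer cells and less of it in each cell cannot be told apart.

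**Figure D1:**
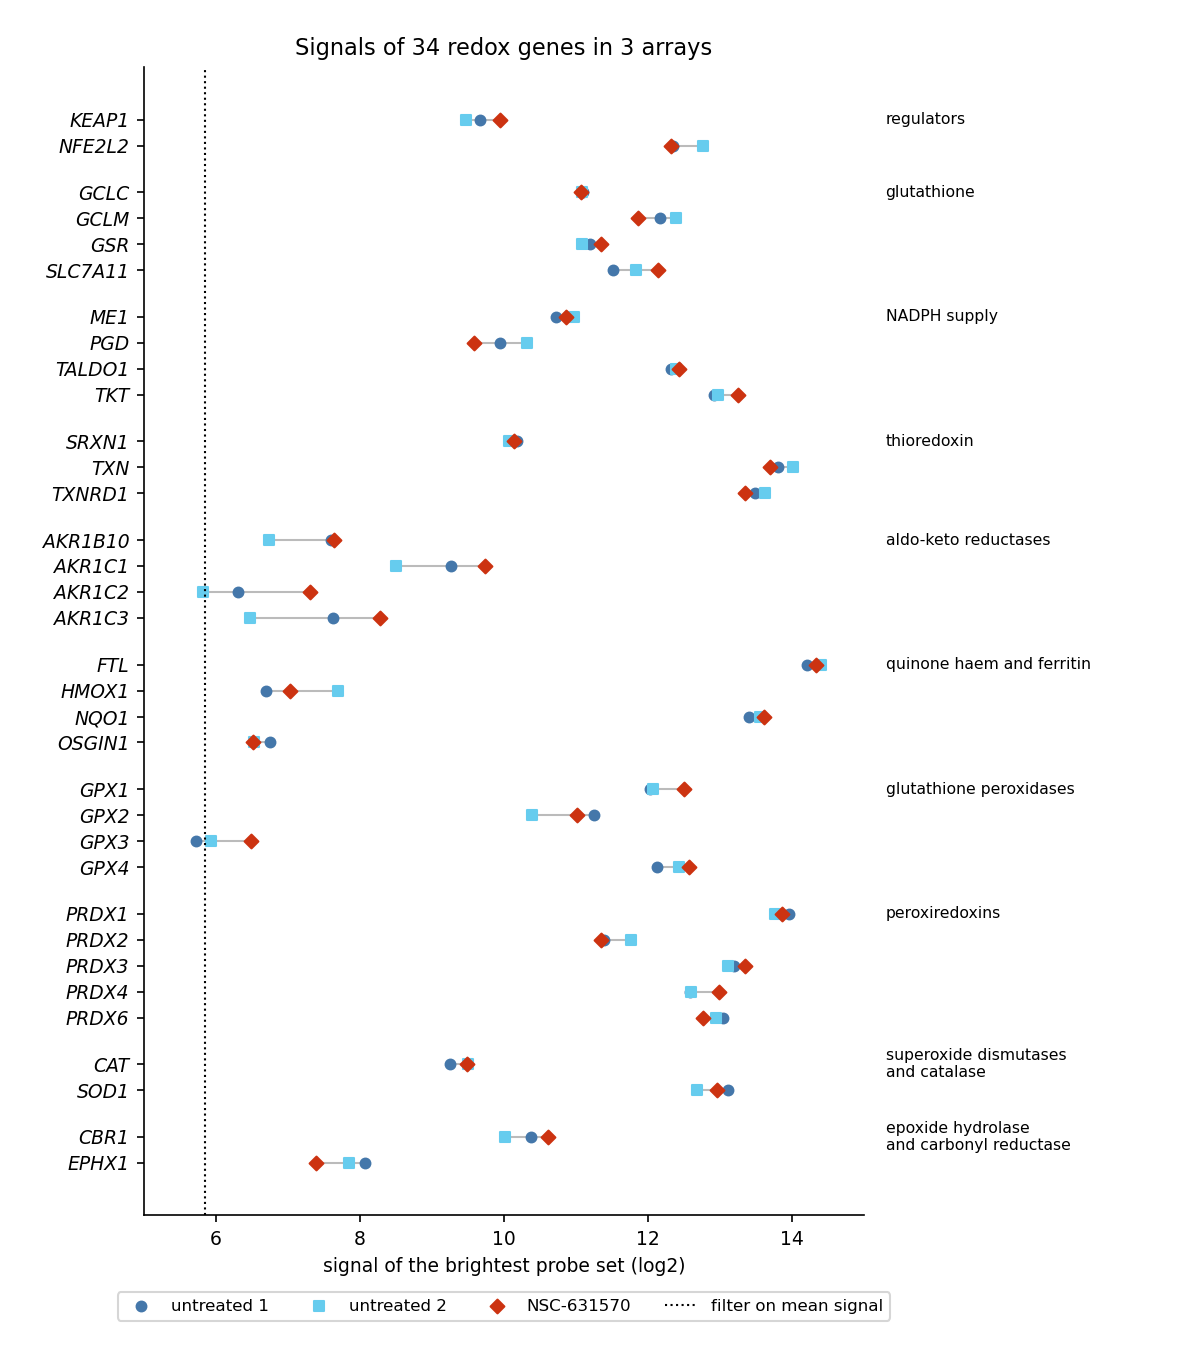
Log2 signal of the brightest probe set of each of the 34 genes, grouped by role, in untreated 1 (circles), untreated 2 (squares) and the NSC-631570 array (diamonds); the dotted line is the filter of 5.85 on mean signal. The treated signal is above both untreated signals in 16 genes, with the widest distances in AKR1C2 and AKR1C3.

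**Figure D2:**
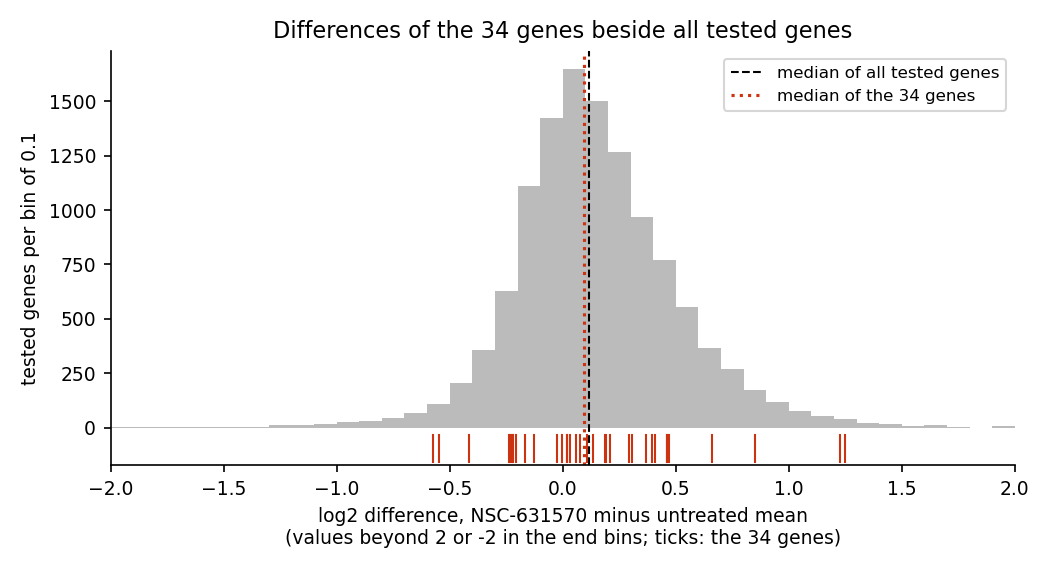
Histogram of the log2 difference between the NSC-631570 array and the untreated mean over 11932 tested genes, with the 34 genes as ticks beneath the axis. The medians of the 34 genes (0.09) and of all tested genes (0.12) nearly coincide, and the ticks run from −0.57 to 1.25.

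The 3 arrays had medians between 6.55 and 6.62. Treated and untreated arrays differed at the 5′ end of the control transcripts. With the extract, the ACTB control at that end was 2.59-fold lower and the GAPDH control 1.39-fold lower, while the 3′ control probe sets differed by 0.20 and −0.01 on the log2 scale. Of 9 squamous epithelial markers, 6 were measured, and their signals lay between 9.46 and 13.96 in all arrays.  Of 6 fibroblast markers 4 lay below the filter and the highest reached 6.21. The leukocyte marker PTPRC stood between 3.72 and 3.78, while CD68, a lysosomal protein of macrophages and of other cells, stood at 7.61 and 8.55 untreated and 9.53 with the extract. CD14, a monocyte marker, was also highest in the treated array (7.03 and 6.17 against 7.42), and CD3E, of T cells, passed the filter with 6.04, 5.65 and 6.05. The 3 endothelial markers PECAM1, CDH5 and VWF passed it too, at 6.37 to 7.79 in all arrays. The part of these signals in the results was not tested.

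The regulators differed little. NFE2L2, which encodes NRF2, had log2 signals of 12.35 in untreated 1, 12.77 in untreated 2 and 12.32 in the treated array. The treated signal was the lowest of the 3 but only 0.03 under untreated 1, while the untreated arrays were 0.42 apart (log2 difference −0.24 ± 0.25, SE from limma, adjusted p = 0.754). Its other probe set differed by −0.22. KEAP1 had signals of 9.67, 9.47 and 9.94 in the same order, and the treated array was the highest (0.37 ± 0.22, limma adjusted p = 0.517).

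The highest differences among the 34 genes were those of 3 aldo-keto reductases of the AKR1C subfamily, which reduce ketosteroids, prostaglandins and carbonyl products of lipid peroxidation and are known as strongly NRF2-dependent in human cells. AKR1C2, a 3-alpha-hydroxysteroid dehydrogenase, had log2 signals of 6.30 and 5.83 untreated and 7.31 with the extract. This was 2.37-fold above the untreated mean (1.25 ± 0.26, SE from limma), the 86th highest difference of 11932 tested genes, with an adjusted p of 0.123 by limma. Its untreated signals lay at the filter, where a signal above background was not shown, so the fold is a ratio of signals. AKR1C2 passed the limma threshold when all arrays were given the same median probe set signal (adjusted p = 0.0433). In that setting 136 of 11932 tested genes passed, against 8 as deposited. Over the other settings with a test the adjusted p of AKR1C2 by limma lay between 0.0532, with every probe set tested singly, and 0.184.

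AKR1C3, which also forms testosterone and prostaglandin F, had signals of 7.62 and 6.47 untreated and 8.27 with the extract (1.23 ± 0.41, 2.34-fold, limma adjusted p = 0.239). Those untreated signals lay within the range of the endothelial markers (6.37 to 7.79), where a signal above background was not shown. The fold is again a ratio of signals. AKR1C1, which inactivates progesterone, had 9.27 and 8.50 against 9.73 (0.85 ± 0.32, 1.80-fold, limma adjusted p = 0.28). In AKR1C1, AKR1C2 and AKR1C3 the treated array was the highest and untreated 2 the lowest, and the distance between the untreated arrays was 0.77, 0.48 and 1.15. Measured from untreated 1 alone, the treated array was higher by 0.46 in AKR1C1, 1.01 in AKR1C2 and 0.65 in AKR1C3, and from untreated 2 alone by 1.23, 1.49 and 1.80. The size of the difference in AKR1C1 and AKR1C3 therefore rests on which untreated array is used.

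AKR1B10, a reductase of retinal and aliphatic aldehydes that is frequently high in squamous carcinomas, had 7.60 and 6.73 untreated and 7.64 with the extract. These signals, too, lay within the range of the endothelial markers. The treated array equalled untreated 1 within 0.04, and untreated 2 was again the lowest. Its other probe set, with 7.35, 6.45 and 6.93, placed the treated array between the untreated ones.

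Other probe sets did not bear out the AKR1C differences in each case. The other probe set of AKR1C1 differed by 0.86, close to the tested one. Of AKR1C2, a dimmer probe set differed by 0.35 and another, with signals from 3.49 to 3.56, lay under the filter and differed by 0.04. The other probe set of AKR1C3 was also under the filter, at 4.52, 4.27 and 4.35. These are closely related genes, AKR1C1 and AKR1C2 most of all, so their probes may bind each other's transcripts and their signals may not be independent. Averaged over its probe sets, AKR1C3 differed by 0.59, while AKR1C2 lay under the filter.

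**Figure D3:**
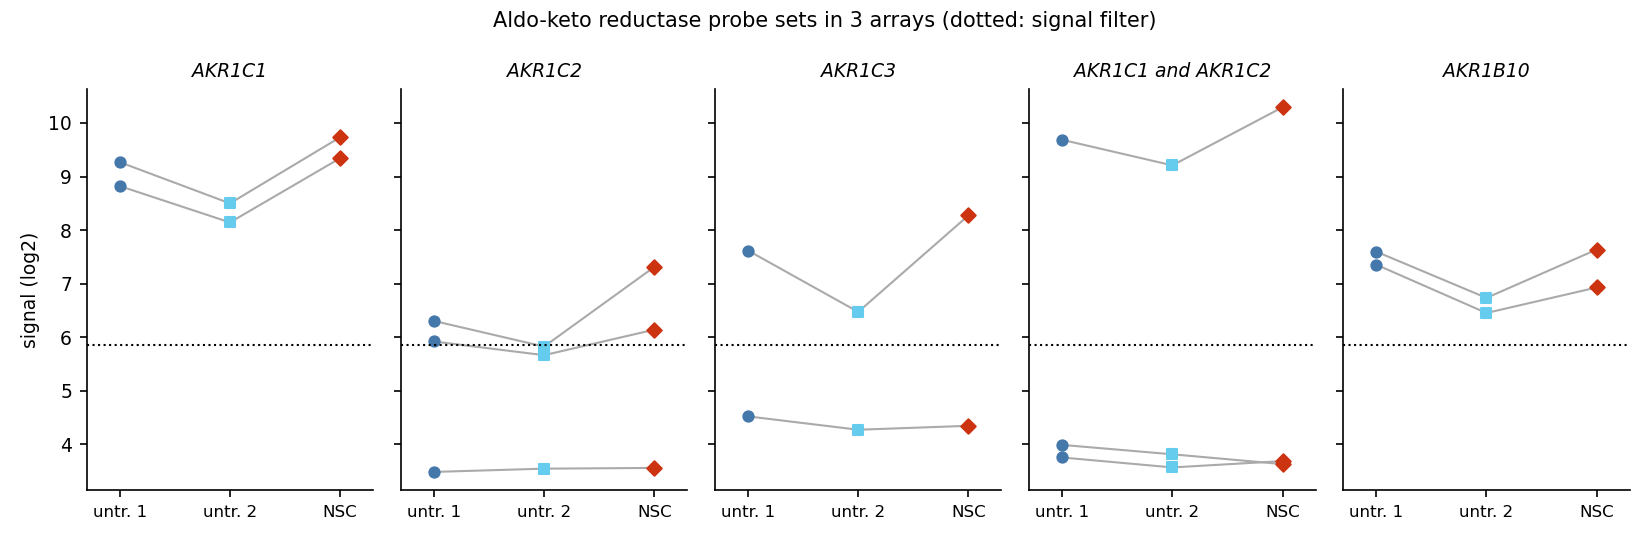
Log2 signal of each aldo-keto reductase probe set in untreated 1, untreated 2 and the NSC-631570 array, 1 line per probe set, with the filter dotted; the fourth panel holds probe sets annotated to both AKR1C1 and AKR1C2. In the brightest probe set of each panel the treated array is the highest and untreated 2 the lowest.

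The AKR1C genes lie together on chromosome 10, and their promoter windows are similar. Over 300-base windows AKR1C1 and AKR1C2 were identical in 288 of 308 aligned columns (93.5%), and AKR1C3 windows reached between 70.2% and 74.7% with either. Neither form of the element was found in these windows, which says only that these letters are not there. The 100 bases before each start are shown for comparison of the family, with AKR1C3 at both of its listed starts.
AKR1C1 chr10:4963315-4963414 (+ strand): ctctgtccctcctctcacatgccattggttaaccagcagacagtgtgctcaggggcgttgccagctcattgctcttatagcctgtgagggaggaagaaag
AKR1C2 chr10:5003858-5003957 (- strand): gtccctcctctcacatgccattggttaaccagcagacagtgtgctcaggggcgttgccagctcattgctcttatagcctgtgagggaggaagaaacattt
AKR1C3 chr10:5048681-5048780 (+ strand): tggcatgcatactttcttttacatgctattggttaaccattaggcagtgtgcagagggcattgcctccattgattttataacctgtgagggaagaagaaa
AKR1C3 chr10:5094314-5094413 (+ strand): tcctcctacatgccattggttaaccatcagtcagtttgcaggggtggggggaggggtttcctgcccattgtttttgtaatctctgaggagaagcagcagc

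Among genes of glutathione supply the directions were mixed. SLC7A11, the cystine importer that limits glutathione synthesis, had signals of 11.51 and 11.84 untreated and 12.14 with the extract. All 3 of its probe sets were higher in the treated array, by 0.30 to 0.51 (0.46 ± 0.24 on the brightest, limma adjusted p = 0.431). GCLM, the modifier subunit of the ligase that makes gamma-glutamylcysteine, was lower, with 12.16 and 12.39 against 11.86 (−0.41 ± 0.23, limma adjusted p = 0.46). Its other probe set was lower by more (−0.95, 8.33 and 8.54 against 7.49), without passing the limma threshold when each probe set was tested (adjusted p = 0.0743). GCLC, the catalytic subunit of that ligase, differed by −0.02 on its brightest probe set. Its other probe sets differed by −0.19, −0.18 and −0.83, the last a dim one with 6.81 and 5.96 untreated against 5.55. GSR, which regenerates reduced glutathione, differed by 0.21 on its brightest and by −0.34 on its other.

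Of enzymes that supply NADPH, PGD, of the oxidative pentose phosphate branch, had 9.95 and 10.32 untreated and 9.59 with the extract, the lowest of the 3 (−0.55 ± 0.24, 1.46-fold lower, limma adjusted p = 0.356). Its other probe set (−0.19) lay between the untreated values. TKT and TALDO1, of the non-oxidative branch, differed by 0.31 and 0.08 on their brightest probe sets. ME1, the cytosolic malic enzyme, differed by 0.02 on its brightest probe set and by −0.27, lowest in the treated array, on its other. PGD, the only one of these lower by over 0.5, and TKT therefore lay on opposite sides of the untreated mean.

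Classical NRF2 targets that detoxify quinones and haem differed, on their brightest probe sets, by less than the untreated arrays did from each other. NQO1, the quinone reductase most often used as a readout of NRF2, had signals of 13.40 and 13.56 untreated and 13.61 with the extract (0.13 ± 0.22, limma adjusted p = 0.864). HMOX1, the haem oxygenase, had 6.70 in untreated 1, 7.70 in untreated 2 and 7.03 in the treated array, which lay between them. Its other 2 probe sets were lowest in the treated array (−0.40 and −0.79). FTL, the ferritin light chain, stood within 0.17 of the untreated mean on all 8 of its probe sets, and OSGIN1, an oxidative stress-induced growth inhibitor, differed by −0.13.

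The glutathione peroxidases, which reduce hydrogen peroxide or lipid hydroperoxides, had a median difference of 0.29 over GPX1, GPX2 and GPX4. GPX3, the secreted form, had 5.73 and 5.94 untreated and 6.49 with the extract. Its limma result was counted further above and is not given here, since only its treated signal took it past the filter. Its other probe set was lowest in the treated array (−0.42). GPX1 differed by 0.46 and 0.42 on its 2 probe sets, with an untreated distance of 0.05 on the brightest one, and GPX4, which protects membranes from ferroptosis, by 0.29 and 0.31. Neither GPX1 nor GPX4 passed the limma threshold (adjusted p = 0.382 and 0.649). GPX2, the gastrointestinal form, had 11.25, 10.39 and 11.01, so that the treated array lay between the untreated ones.

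Of the other peroxide and superoxide enzymes, PRDX4, the peroxiredoxin of the endoplasmic reticulum, had 12.59 and 12.60 untreated and 12.99 with the extract (0.40 ± 0.21, limma adjusted p = 0.457). PRDX3, of mitochondria, differed by 0.19 on its brightest probe set and by −0.26 on the other. PRDX1 lay between the untreated arrays (−0.00125), and PRDX6, which also has phospholipase activity, was lower on all 4 probe sets, by 0.23 at most (−0.23). SOD1, the cytosolic superoxide dismutase, and CAT, the peroxisomal catalase, lay between the untreated arrays. CAT had 9.25 and 9.50 there and 9.49 in the treated array, with an adjusted p of 0.898 by limma.

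EPHX1, the microsomal epoxide hydrolase, had the lowest difference of the 34 genes on the brightest probe sets, with 8.07 and 7.85 untreated and 7.39 with the extract (−0.57 ± 0.22, 1.49-fold lower, limma adjusted p = 0.296). It has a single probe set. CBR1, a carbonyl reductase, had 10.38 and 10.02 against 10.61 (0.41 ± 0.24, limma adjusted p = 0.503), and its 5 bright probe sets were higher by 0.20 to 0.41. Of the 6 genes with the longer element shown above, CBR1, KEAP1 and GPX2 were above the untreated mean and EPHX1, GCLM and TXNRD1 below it, with GPX2 turning to −0.01 after centring on the tested genes.

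The thioredoxin genes held the clearest disagreement between probe sets. TXN, thioredoxin itself, had 13.81 and 14.01 untreated and 13.69 with the extract (−0.22 ± 0.22, limma adjusted p = 0.744), and all 5 of its probe sets lay between −0.20 and −0.25. SRXN1, the sulfiredoxin that restores oxidised peroxiredoxins, differed by 0.02. TXNRD1, the cytosolic thioredoxin reductase, had 13.49 and 13.63 against 13.35 on its brightest probe set (−0.21 ± 0.22, limma adjusted p = 0.755). Its other 2 probe sets, however, fell. One had 11.67 in both untreated arrays and 9.55 in the treated one, 4.35-fold lower (−2.12 ± 0.22, limma adjusted p = 0.00813 over 27255 probe sets). The other had 11.74 and 11.70 against 9.84, 3.70-fold lower (−1.89 ± 0.22, limma adjusted p = 0.0105).

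PRDX2, a cytosolic peroxiredoxin, showed the same kind of split. A single probe set fell, from 10.14 and 10.47 in the untreated arrays to 9.08 in the treated one (−1.22 ± 0.24, 2.33-fold lower, limma adjusted p = 0.0448), and its adjusted p by limma was 0.0612 after quantile normalisation, 0.0548 with equal array medians and 0.0668 without a filter. The other 4 probe sets of PRDX2 differed by −0.20 to −0.32. These 3 probe sets of TXNRD1 and PRDX2 are all that passed among the 83, or 3.61%, against 2.92% of all probe sets tested one by one, and 2.37% of all probe sets passed and were lower. At least 1.5-fold below both untreated arrays lay 4 of the 83, with a GCLM probe set as the fourth (6.77% of all probe sets), and 2 lay that far above both (4.15%). Above both at any distance lay 30 (40.7% of all probe sets) and below both 31 (34.5%).

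The split was measured within genes that have several probe sets past the filter. In TXNRD1 the difference between treated array and untreated mean ranged over 1.91 on the log2 scale among its 3 probe sets, whereas the difference between the 2 untreated arrays ranged over 0.18. This spread was the 119th widest of 7125 such genes. A spread of at least 1 was found in 2 of 25 of the redox genes (TXNRD1 and PRDX2) and in 1062 of all 7125, or 14.9%, against 1.82% between untreated 1 and untreated 2. Between the untreated arrays 1 of the 25 redox genes, GCLC, had such a spread (1.31). The lower 5′ control signal of ACTB (2.59-fold) was measured in the same treated array, the position of each probe set along its transcript was not used here, and its part in the split was not tested.

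**Figure D4:**
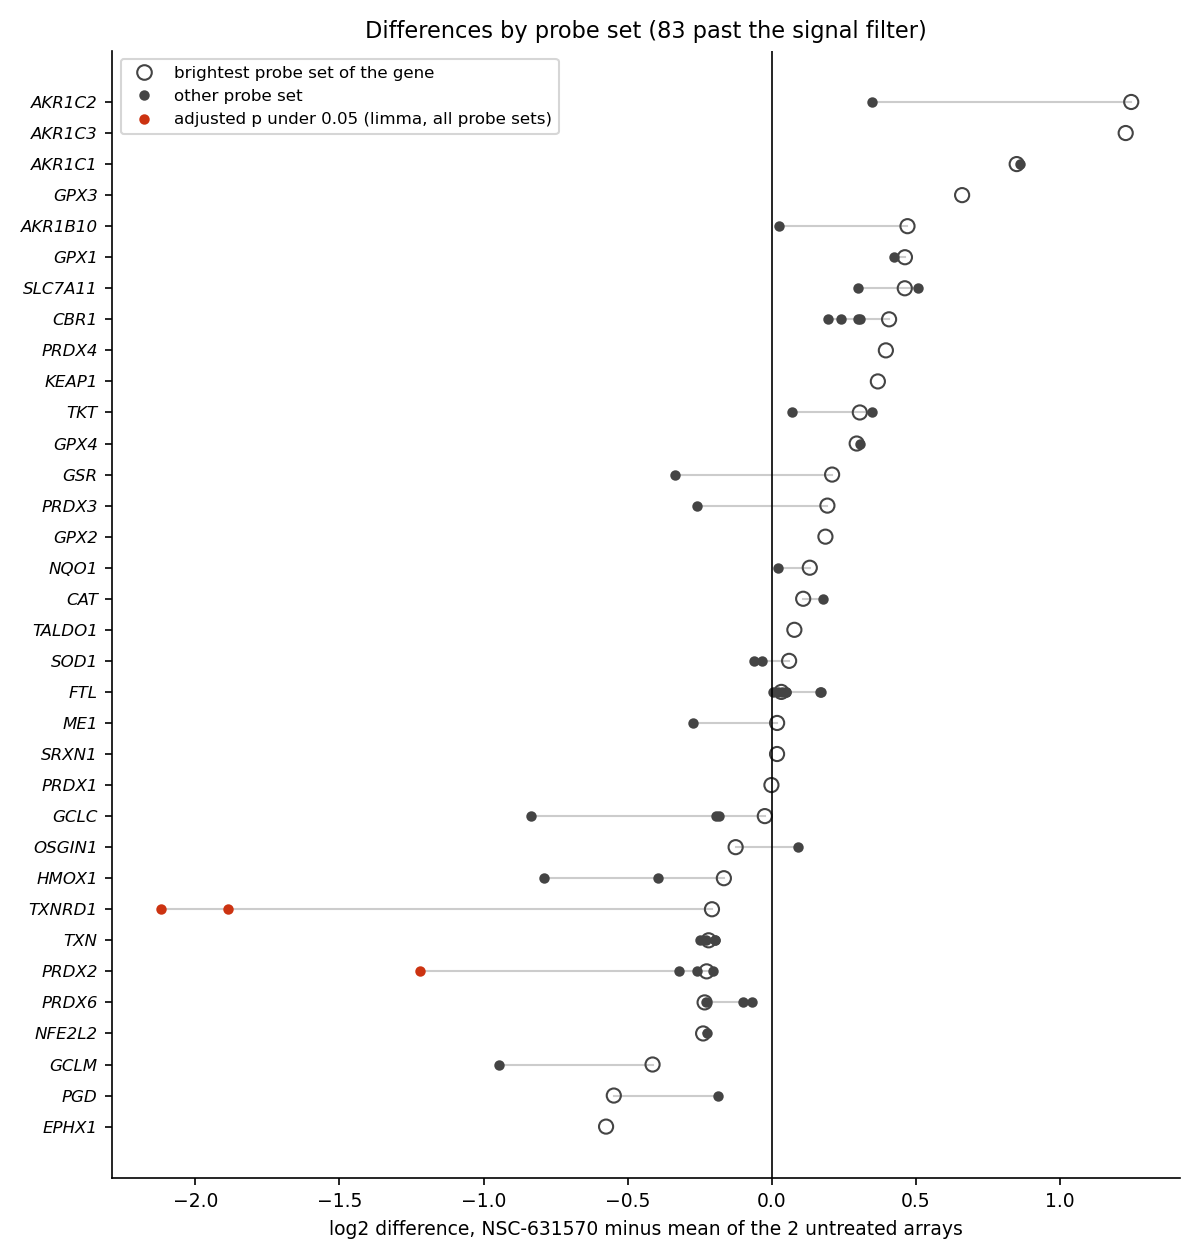
Log2 difference between the NSC-631570 array and the untreated mean for each of the 83 probe sets past the filter, 1 line per gene; open circles are the brightest probe set, small dots the others, and red marks an adjusted p under 0.05 (limma over 27255 probe sets). The probe sets past the threshold are 2 of TXNRD1 and 1 of PRDX2, all lower and none the brightest of its gene.

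**Figure D5:**
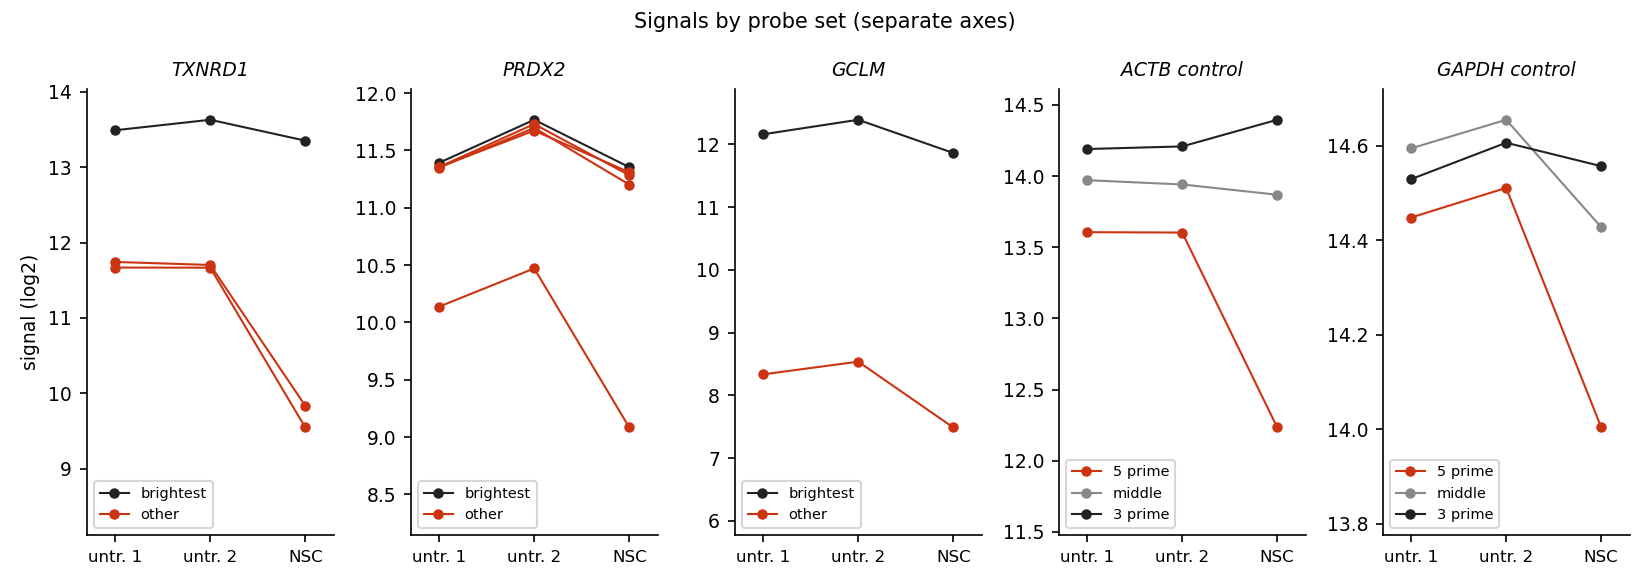
Log2 signal in untreated 1, untreated 2 and the NSC-631570 array (NSC) for each probe set of TXNRD1, PRDX2 and GCLM past the filter and for the 5′, middle and 3′ control probe sets of ACTB and GAPDH, each panel with its own axis. The dimmer probe sets of TXNRD1, 1 of PRDX2 and the dimmer one of GCLM differ by −2.12 to −0.95 in the treated array. The 5′ controls of ACTB and GAPDH differ by −1.37 and −0.48. The remaining probe sets of TXNRD1, PRDX2 and GCLM, all lower too, and the 3′ controls move by 0.41 or less.

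Other genes of the pathway, none of them among those above, gave no call by limma either, against 0.067% of tested genes. Of 13 partners in the NRF2, MAF and KEAP1 network, 11 were tested, with a median difference of 0.24 against 0.12 over all tested genes. None lay 1.5-fold outside both untreated arrays, against 5.84% of tested genes above both and 1.23% below both. NFE2L3, a relative of NRF2, differed most (0.84, with untreated arrays 1.15 apart), before RBX1 (0.43), DPP3 (0.36) and PALB2 (−0.35). Of 41 further targets and thiol enzymes 31 were tested and had a median difference of 0.21, against the same 0.12. At least 1.5-fold above both untreated arrays lay 4 of them (5.84% of tested genes): the efflux transporters ABCC3 and ABCC2, the methionine sulfoxide reductase MSRB2 and the glutaredoxin GLRX. ABCC3 had 6.99 and 7.39 in the untreated arrays and stood 2.55-fold higher in the treated one (1.35 ± 0.25, limma adjusted p = 0.0952). MSRB2 differed by 0.80, ABCC2 by 0.78 and GLRX by 0.68. The untreated signals of ABCC2 (6.42 and 6.28) and GLRX (6.58 and 6.50) were low. For these 2 genes and ABCC3 a signal above background was not shown. The lowest difference of this list was that of SESN2 (−0.61, with untreated arrays 1.20 apart).

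Of 14 other aldo-keto and carbonyl reductases 10 were tested, with a median difference of 0.08. None of them lay 1.5-fold outside both untreated arrays (5.84% of tested genes above both and 1.23% below both). DHRS3, a retinal reductase, differed by 0.79, CBR3, another carbonyl reductase, by 0.54, PTGR1, which reduces leukotriene and alkenal double bonds, by −0.49 and PTGR2 by 0.39. Of 9 genes of iron handling and ferroptosis 7 were tested, and their differences ran from −0.28 (ACO1) to 0.33 (AIFM2, a ferroptosis suppressor), with STEAP3 at 0.32 and SLC11A2 at 0.24. In that list, too, none lay 1.5-fold outside both untreated arrays, against the same shares of tested genes.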

How the data were processed

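Log2 signals per probe set were deposited by the authors for 3 PrimeView arrays (2 untreated, 1 treated), made with Affymetrix Expression Console, per the submitters' processing notes. Its algorithm and normalization (not given in the sources used here) remain unknown, and the log2 values entered unchanged. Background estimates were not used, so no probe set was called detected, and precision is limited by there being 3 arrays. Gene names come from the platform annotation: 44994 of 49395 named 1 gene, and 1832 naming several were not used for any gene. For each gene its brightest probe set on average was used, and genes under the 40th percentile of mean signal (5.85) were left out.

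The treated array was compared with both untreated arrays by limma (version 3.58.1, R version 4.3.3) over all 11932 genes, taking a Benjamini-Hochberg adjusted p under 0.05 as the threshold. Only 1 residual degree of freedom is available, moderated by 6.95 prior degrees (prior SD 0.19), and the single treated array has to be taken as varying as much as its controls. With 2 arrays against 1, an exact permutation test cannot go below 0.333. Whether the untreated arrays came from separate cultures is not stated, and p-values may then reflect technical spread only. A second count without a test took genes at least 1.5-fold outside both untreated arrays. Genes given with all 3 signals were the regulators, those past this fold, the largest difference in each role and AKR1C1 to AKR1C3; others were picked on seeing their values. The genes and lists were chosen with earlier results of these data known. The fit was tested on simulated data in which all arrays varied alike, so it could not test whether the treated array does. The alternatives tried were other scalings, filters, prior variances and probe set rules, and leaving out each untreated array.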

Additional observations from a re-analysis of the deposited data

Results flagged for a closer look

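A probe set annotated to both AKR1C1 and AKR1C2, which entered no comparison because it names several genes, had log2 signals of 9.69 and 9.21 untreated and 10.29 with the extract. It stood 0.85 above the untreated mean (1.80-fold) and 0.61 above the higher untreated array. The other 2 probe sets annotated to both genes differed by 0.03 and −0.27, with no signal above 3.99.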

How the results depend on the processing

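The number of genes past the limma threshold, 0 as deposited, was 1 (AKR1C2) after centring arrays on all probe sets and 0 in the other gene-level settings with a test; tested singly, 3 probe sets passed, of TXNRD1 and PRDX2. Over all tested genes 8 passed as deposited, 136 after centring on all probe sets, 50 after centring on tested genes, 31 with a trend in the prior variance, 21 with the filter at the 60th percentile, 4 after quantile normalisation, 4 without a filter and 3 with averaged probe sets. The number at least 1.5-fold above both untreated arrays, 2 as deposited, was 1 after centring on tested genes and 0 with averaged probe sets. It was 1 with the filter at the 60th percentile, which leaves 29 of the 34 genes. Over all tested genes the number was 697 of 11932 as deposited and 314 of 11932 after centring on tested genes. It was 468 of 8670 with the higher filter and 374 of 10604 with averaged probe sets. The number at least 1.5-fold below both, 0 as deposited, was 1 after centring on tested genes (EPHX1) and 1 with averaged probe sets (TXNRD1). With probe sets taken singly it was 4. Over all tested genes it was 147 as deposited, 338 after centring on tested genes and 318 of 10604 with averaged probe sets. Of all 27255 probe sets taken singly, 1845 lay that far below. The median difference, 0.09 as deposited, was -0.10 after centring on tested genes, 0.011 with averaged probe sets and 0.02 with probe sets taken singly. Over all tested genes the median was 0.12 as deposited, −0.08 after centring on tested genes and 0.035 with averaged probe sets. Over all probe sets taken singly the median was 0.032. Centring on the tested genes lowered the median of all genes by 0.20 (shift −0.20): 10 of the 34 genes then lay above both untreated arrays and 15 below both, against 28.4% and 46.4% of tested genes. Without 1 untreated array, the 1.5-fold counts ran from 4 to 6 above and from 1 to 2 below the remaining one. Without untreated replicate 1 the 6 were AKR1B10, AKR1C1, AKR1C2, AKR1C3, CBR1 and GPX2. Without untreated replicate 2 the 4 were AKR1C2, AKR1C3, SLC7A11 and GPX3, which passed the filter only through its treated signal. Of all 11932 tested genes, 1351 and 1440 lay that far above and 335 and 275 that far below in these settings. With 1 array on each side no test was possible. After centring on tested genes, 9 of the 34 genes turned below the untreated mean: CAT (-0.088), FTL, GPX2, ME1, NQO1 (−0.06), PRDX3, SOD1, SRXN1 and TALDO1. A further 2 turned above it after centring on all probe sets (GCLC and PRDX1), and 3 changed side after quantile normalisation (ME1, PRDX1 and SRXN1). Measured from untreated 2 alone HMOX1 differed by −0.67, and from untreated 1 alone by 0.33. Both TXNRD1 probe sets passed in every setting tried for single probe sets, chosen after seeing the data (adjusted p by limma from 0.00303 to 0.0238). The cause of these changes was not tested. A second pseudocount was not run, since the values are log2. No paired analysis was possible because the groups share fewer than 2 replicate numbers.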

Other observations

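SOD2, the mitochondrial superoxide dismutase, was measured only by 4 probe sets that also name SOD2-OT1. The brightest had log2 signals of 10.61 and 10.27 untreated and 10.76 with the extract, a difference of 0.31. Of the other three, 2 lay between the untreated arrays (−0.07 and −0.11), and the dimmest was lowest in the treated array, with 5.33 and 6.59 against 4.95. The 2 probe sets that name both AKR1B10 and AKR1B15 lay between the untreated arrays (−0.03 and −0.08).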
